A study of Homo sapiens with 8 samples.

Results

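CENPF and 9 further genes of the kinetochore and of the spindle checkpoint were followed in ribosome profiling of IMR32 cells, a human neuroblastoma line with amplified MYCN. The 10 genes are CENPF, CENPE, BUB1, BUB1B, BUB3, TTK, NDC80, NUF2, MAD2L1 and ZWINT, found by symbol among the 60651 genes of the table, and all 10 had 1 row each. CENPF was chosen by its TPM in these same libraries, which an earlier look had shown far above the DMSO level, and the other 9 were selected to stand beside it. The treatment differences of the 10 genes are therefore given as descriptions without p-values. How many of them passed the threshold of the fit over all genes is stated beside the share or number of all genes that did, and supports nothing. The study held 8 libraries in 2 groups: 4 from cells given CR31B, a silvestrol analogue of the rocaglate class, and 4 from cells given the solvent DMSO. All cells carried the label WT for genotype and were grown in complete RPMI medium. Treatment lasted 6 h, and cycloheximide, which stalls elongating ribosomes, was added to both groups before harvest. The design text calls the 4 samples of a group biological replicates, and all come from the same cell line.

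The kinetochore is the protein assembly on the centromere that holds spindle microtubules during mitosis. Its outer layer, built around the NDC80 and KNL1 complexes, binds the microtubules, while checkpoint kinases and the BUB and MAD proteins recruited there delay anaphase until every chromosome is attached. CENPF and CENPE are very large coiled-coil proteins of the fibrous corona, the outermost layer, and genes of this group are typically produced before and during mitosis of dividing cells. Rocaglates act on the RNA helicase eIF4A, which unwinds the leader (the 5′ untranslated part) of mRNAs for the scanning ribosome, and they are known to clamp it onto stretches of purines.

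Because of that preference, the leaders were searched for their longest unbroken run of A and G. The windows below show that run in capitals with up to 6 bases on each side, 5′ to 3′, from the principal GENCODE 29 transcript of the genes at the upper and lower end of the treatment differences and of NUF2, which has the longest run.
CENPF: agtaatAAAGAAGGcagaac
KNL1: tcggtcGAAAAAGAGAtaaagc
CENPE: ggccgcGGAGGGtcctgg
NUF2: gaggacGGAGGAAGGAAGcctgca
MAD2L1: aaggctGAGAGAAAGGGcaggtc
ZWINT: gattgtGGGAAGGcagctg
The CENPF run of 8 nt ends 9 nt before the start codon, in a leader of 168 nt with 54.8% GC. Among 9838 tested coding genes with a leader of at least 20 nt the median longest run was 8.0 nt, and 56.6% had a run at least as long as that of CENPF. The runs of the 10 genes spanned 4 nt in BUB1 to 12 nt in NUF2, and 19.9% of coding genes had a run at least as long as that of NUF2. Leader GC content was under the median of all these genes, 66.5%, in 9 of the 10 genes, with BUB1 at 68.1% as the exception. Over all these coding genes the median log2 difference between CR31B and DMSO was 0.05 for runs of up to 7 nt (4272 genes), 0.015 for 8 to 10 nt (2928 genes), 0.015 for 11 to 14 nt (1723 genes) and -0.026 for 15 nt or more (915 genes). The part of leader sequence in the values of the 10 genes was not tested.

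Values are TPM, a level relative to transcript length that sums to the same total in every library. A higher or lower value is therefore a change in a gene's share of that total. A change in the total amount of translation between groups would not be seen in TPM. The number of reads behind a value is unknown, since TPM keeps no depth. Genes above 0 numbered 19539, 19189, 17857 and 19758 under CR31B and 21217, 21255, 19043 and 22270 under DMSO, replicates 1 to 4. The number was lower under CR31B within every replicate number, and replicate 3 was the lowest of each group. Whether this bears on the treatment differences was not tested. The protein-coding share of TPM lay between 51.8% and 61.3%, highest for CR31B replicate 1. The neuroblast label was checked against markers of the adrenergic neuroblastoma state. HAND2 (160 to 319 TPM) and MYCN (542 to 1076 TPM) were abundant, whereas TH, the first enzyme of catecholamine synthesis, was at 0.35 to 1.19 TPM. Of the markers of other cell types CD3E, SOX10 and PECAM1 were listed at 0 in all 8 libraries, PTPRC, S100B, ALB and KRT18 did not exceed 0.8 TPM, and PDGFRA, whose exons overlap another gene, stood at 11.2 to 15.9 TPM.

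CENPF (ENSG00000117724.13; chromosome 1, 214603195 to 214664588, plus strand, GENCODE 29 on GRCh38) encodes a farnesylated corona protein that binds microtubules and dynein regulators. It was at 957, 711, 1382 and 906 TPM in replicates 1 to 4 of CR31B and at 290, 396, 428 and 250 TPM in replicates 1 to 4 of DMSO. The lowest CR31B library was thus above the highest DMSO library, and in both groups replicate 3 was the highest. The means were 989 ± 282 TPM under CR31B and 341 ± 85.1 TPM under DMSO (SD, n = 4 per group), a ratio of 2.90. On the log2(TPM + 1) scale, which is used for all fold changes and understates those of low genes, the difference was 1.53 with a standard error (SE) of 0.23. The ratio of CR31B to DMSO within a replicate number was 3.31, 1.79, 3.23 and 3.63 for numbers 1 to 4, so replicate 2 showed the smallest difference.

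**Figure D1:**
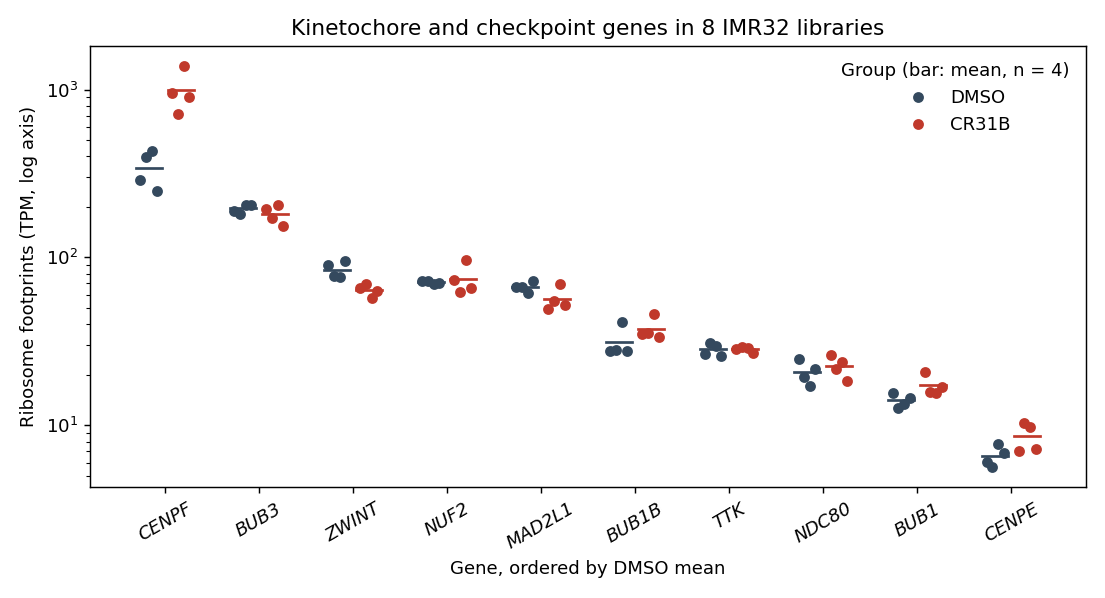
Footprint levels (TPM, log axis) of the 10 genes in every library, with DMSO in dark blue, CR31B in red and a bar at each group mean (n = 4). CENPF separates by treatment, from 250 to 428 TPM under DMSO and from 711 to 1382 TPM under CR31B, while all other genes except ZWINT overlap between groups.

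The level of CENPF was high for a gene of this class even without the drug. In DMSO 221 to 401 protein-coding genes lay above it, and under CR31B 45 to 126. CENPE, the other giant corona protein, had 6.56 ± 0.925 TPM under DMSO (SD, n = 4), and the CENPF level per length was 52.5 ± 14.1 times that of CENPE under DMSO and 117 ± 33.2 times under CR31B (SD, n = 4 each). GENCODE 29 lists 6 CENPF transcripts of 345 to 10307 nt, 4 of them under 1000 nt, and the table gives 1 value per gene. Reads placed on a short transcript weigh more in TPM than reads on the full one, and which transcripts took the reads, and where along them, was not tested. No other GENCODE 29 gene shares exonic bases with CENPF. On the same build, given as chromosome, start, end and strand, the other genes lie as follows. The motor and the checkpoint genes are CENPE at 4, 103105806 to 103198409 (minus), BUB1 at 2, 110637698 to 110678114 (minus), BUB1B at 15, 40161023 to 40221136 (plus), BUB3 at 10, 123154277 to 123170467 (plus), TTK at 6, 80003887 to 80042527 (plus) and MAD2L1 at 4, 120055608 to 120067074 (minus). The structural genes are NDC80 at 18, 2571511 to 2616635 (plus), NUF2 at 1, 163266576 to 163355764 (plus) and ZWINT at 10, 56357228 to 56361275 (minus).

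Ranked by signed log2 difference from the most positive down, CENPF was number 38 of 11778 tested genes, genes that were lower under CR31B standing at the far end whatever their size. Of the 1025 genes that averaged 100 TPM or more, 2 had a higher signed value. With the 9 other genes summed, the total was 490.0 ± 48.2 TPM under CR31B and 519 ± 18.1 TPM under DMSO (SD, n = 4 each), and the groups overlapped. CENPF accordingly made up 66.2% ± 4.69 of the TPM of the 10 genes under CR31B and 39.2% ± 6.61 under DMSO (SD, n = 4 each). The log2 difference of CENPF exceeded the mean of those of the other 9 genes by 1.5.

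**Figure D2:**
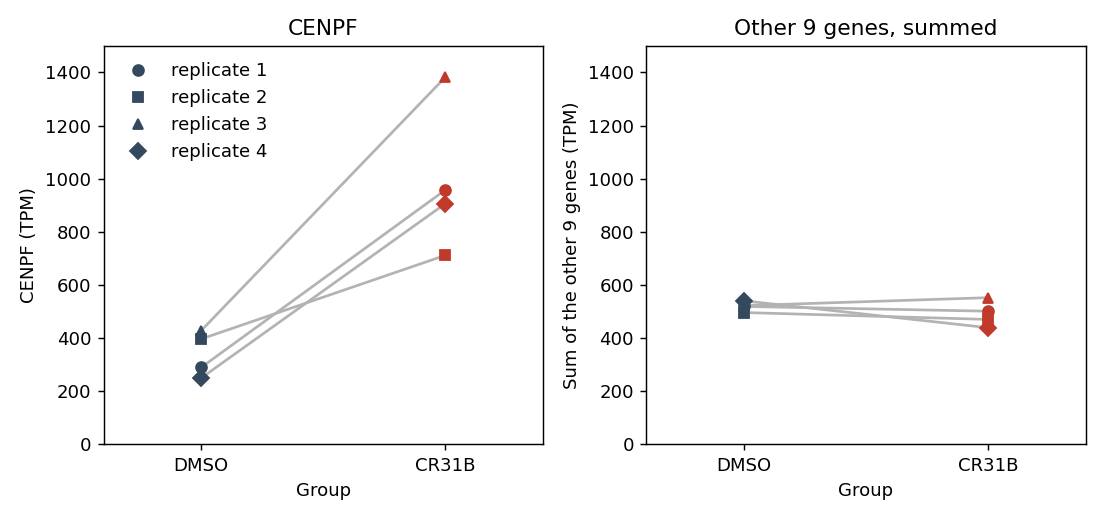
CENPF (left) and the sum of the other 9 genes (right) in TPM for each library, with lines joining libraries of the same replicate number. CENPF is higher under CR31B in 4 of 4 numbers, whereas the sum runs from 439 to 552 TPM under CR31B and from 496 to 540 TPM under DMSO.

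CENPE, a plus-end-directed kinesin that carries chromosomes to the metaphase plate, was the lowest of the 10 genes. It was at 7.07, 10.4, 9.81 and 7.22 TPM under CR31B and at 6.05, 5.64, 7.74 and 6.82 TPM under DMSO, replicates 1 to 4. CENPE was higher under CR31B within every replicate number, but the groups overlapped, and the log2 difference was 0.34 (SE 0.16). Over all tested genes 20.1% were higher under CR31B within every number.

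The checkpoint kinases showed smaller differences than CENPE. BUB1, which phosphorylates histone H2A at the centromere, was at 15.6 to 20.9 TPM under CR31B and 12.8 to 15.7 TPM under DMSO, a log2 difference of 0.27 (SE 0.13). BUB1B (BubR1), a component of the inhibitor that holds back the anaphase-promoting complex, was at 35.2, 35.4, 45.8 and 33.6 TPM under CR31B and at 27.8, 28.0, 41.4 and 27.8 TPM under DMSO, replicates 1 to 4. In BUB1B, as in CENPF, replicate 3 was the highest library of each group, and its log2 difference was 0.27 (SE 0.16). Both BUB1 and BUB1B were higher under CR31B in 4 of 4 replicate numbers, and for both the groups overlapped. TTK (MPS1), the kinase that starts checkpoint signalling, stayed at 26.9 to 29.4 TPM under CR31B and 25.7 to 31.1 TPM under DMSO, with a log2 difference of 0.01 (SE 0.11).

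BUB3, the WD40-repeat protein that docks BUB1 and BUB1B onto KNL1, was the most abundant after CENPF, at 181 ± 22.8 TPM under CR31B and 196 ± 12.2 TPM under DMSO (SD, n = 4 each). The groups overlapped, and the log2 difference was -0.12 (SE 0.12). MAD2L1 (MAD2), the protein whose closed form captures CDC20, was at 49.3, 55.1, 69.1 and 52.0 TPM under CR31B and at 66.5, 66.7, 61.2 and 72.3 TPM under DMSO, replicates 1 to 4. It was lower under CR31B in replicates 1, 2 and 4 and higher in replicate 3, for a log2 difference of -0.25 (SE 0.13). Its processed pseudogene MAD2L1P1 was listed at 71.4 to 126 TPM, more than MAD2L1 itself, and had the same log2 difference of -0.25 (SE 0.15). The MAD2L1 level is therefore uncertain, because reads can be shared between the gene and its copy. The listed copies of BUB1 and BUB3 and the BUB1B-PAK6 readthrough gene did not exceed 0.05 TPM.

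NDC80 and NUF2, which form the microtubule-binding half-dimer of the NDC80 complex, had differences smaller than their SE. NDC80 was at 18.4 to 26.4 TPM under CR31B and 17.2 to 24.9 TPM under DMSO, and NUF2 at 62.1 to 95.9 and 69.5 to 72.8 TPM. The log2 differences were 0.11 (SE 0.15) and 0.04 (SE 0.14). The 4 DMSO libraries of NUF2 lay close together, while CR31B replicate 3 stood at 95.9 TPM, above all others.

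ZWINT, which binds KNL1 and helps to hold the ROD-ZW10-ZWILCH complex at kinetochores, was the gene with the lowest difference. It was at 65.5, 69.3, 57.1 and 63.0 TPM under CR31B and at 89.9, 77.8, 76.0 and 95.0 TPM under DMSO, replicates 1 to 4. All CR31B libraries were below all DMSO libraries, as in 8.14% of all tested genes, and 18.0% were lower within every replicate number. ZWINT had a log2 difference of -0.40 (SE 0.12). Within DMSO the order of the libraries in ZWINT was the exact reverse of that in CENPF, and within CR31B both genes had replicate 3 at one end and replicate 2 at the other.

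Of the 10 genes, limma placed 1, CENPF, under an adjusted p of 0.05, against 7.46% of all tested genes. Over all genes 3.45% were called higher and 4.02% lower, and 23.4% had an unadjusted p under 0.05. Blocking on the replicate number placed 2, CENPF and ZWINT, against 12.3%. ZWINT also passed at a mean of at least 10 TPM, where 640 of 5613 genes were called. It passed as well after quantile normalization (1174 of 11778 genes called) and after rescaling over protein-coding genes (1227 of 11136). The groups did not overlap in CENPF and ZWINT, against 16.2% of all tested genes, with 8.07% of all tested genes higher and 8.14% lower under CR31B. Since the genes were chosen with this contrast known, these counts carry no weight of their own. The median log2 difference of the 9 genes without CENPF was 0.043, and that of all tested genes 0.029. Here as elsewhere in bulk footprints, fewer cells of a type and less RNA per cell cannot be told apart, and without RNA-seq values neither can mRNA level and translation.

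The order of the DMSO levels was CENPF, BUB3, ZWINT, NUF2, MAD2L1, BUB1B, TTK, NDC80, BUB1 and CENPE. Of neighbours in that order, NUF2 and MAD2L1 overlapped in their libraries, as did BUB1B and TTK, and the other neighbours did not. Under CR31B the order of the means was the same except that NUF2 stood above ZWINT. TPM divides by whole transcripts although footprints come mainly from coding sequence. The coding part was 90.6% of the CENPF transcript and 94.1% of that of CENPE, but 12.6% for BUB3 and 11.2% for MAD2L1, whose long 3′ ends lower their TPM if those transcripts are the ones used.

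Partners of one complex were compared as ratios within a library. NUF2 was 3.32 ± 0.580 times NDC80 under CR31B and 3.48 ± 0.503 times under DMSO (SD, n = 4 each), and SPC24, of the other arm of that complex, was 1.05 to 1.57 times SPC25 with the drug and 0.813 to 1.09 times without it. BUB1B was 2.21 ± 0.533 times BUB1 under CR31B and 2.24 ± 0.598 times under DMSO. These ratios overlapped between groups, as did those of NUF2 to SPC24, BUB3 to BUB1B, BUB3 to BUB1 and MAD2L1 to MAD1L1. The ratio of KNL1 to ZWINT, a binding pair, did not: it was 0.393, 0.412, 0.505 and 0.340 under CR31B and 0.127, 0.141, 0.133 and 0.110 under DMSO, replicates 1 to 4. It combined a higher KNL1 with a lower ZWINT. Since each of these genes separated the groups by itself, in opposite directions, their ratio had to do so too.

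Further genes were taken from 4 lists of 49 kinetochore, centromere and CENPF partner genes in all, every one of which was tested. In TPM KNL1 rose and PAFAH1B1 fell, and the other 47 did not pass, so that 4.08% were called against 7.46% of all tested genes. The lists were drawn up with earlier results of these data known, so p-values and counts of list genes describe the fit and are no independent support. The median log2 difference of the 49 genes was 0.048. When the replicate number was a block, 4 passed, KNTC1 and CENPL being added as higher under CR31B, against 12.3% of all genes.

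KNL1 (ENSG00000137812.20), the scaffold that recruits BUB1, BUB1B and BUB3, was at 25.7, 28.5, 28.8 and 21.4 TPM under CR31B and at 11.4, 10.99, 10.1 and 10.5 TPM under DMSO, replicates 1 to 4. All CR31B libraries were above all DMSO libraries. KNL1 rose, with a log2 difference of 1.2 (SE 0.12) and an adjusted p of 0.000756 in limma, in 4 of 4 replicate numbers. It was 1 of 10 outer kinetochore genes called, or 10.0%, against 7.46% of all tested genes, and that list had a median of 0.13. MIS12, which anchors KNL1 and NDC80 to the inner kinetochore, was 0.72 higher (SE 0.23, limma adjusted p of 0.0942) without overlap between groups, and CR31B replicate 3 stood at 76.8 TPM with its 3 fellow libraries at 30.8 to 42.5 TPM. SPC25, by contrast, was lower under CR31B within each number, by a log2 difference of -0.28 (SE 0.11, limma adjusted p of 0.17).

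Of 10 checkpoint and corona genes 0 passed in limma, against 7.46% of all tested genes, and 2 had an unadjusted p under 0.05, against 23.4%. KNTC1 (ROD), which brings dynein and MAD proteins to unattached kinetochores, was at 24.7 ± 4.73 TPM under CR31B and 15.1 ± 3.60 TPM under DMSO (SD, n = 4 per group), a log2 difference of 0.69 (SE 0.19, limma adjusted p of 0.0539, and 0.0404 with the block). Its partners ZW10 and ZWILCH differed by 0.03 and -0.01. SPDL1 (Spindly), the dynein adaptor, had 0.52 (SE 0.15, limma adjusted p of 0.0647). Among 22 inner kinetochore and centromere genes 0 passed in limma and 3 had an unadjusted p under 0.05, against the same 7.46% and 23.4%. Their log2 differences ran from -0.32 in CENPH to 0.46 in CENPM. CENPA, the centromeric histone H3 variant, was at 8.27 ± 2.05 TPM under CR31B and 8.98 ± 1.26 TPM under DMSO (SD, n = 4 each).

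Of 7 partners of CENPF 1, or 14.3%, passed, against 7.46% of all tested genes. PAFAH1B1 (LIS1), the dynein regulator that CENPF binds through NDE1 and NDEL1, fell, with a log2 difference of -1.74 (SE 0.15) and an adjusted p of 0.000412 in limma, from 56.1 to 71.1 TPM under DMSO to 13.8 to 21.4 TPM under CR31B. NDE1 stayed at 17.5 to 19.7 TPM over the 8 libraries, and NDEL1 had a log2 difference of -0.19 (SE 0.14, limma adjusted p of 0.474). FNTA and FNTB, the subunits of the enzyme that farnesylates CENPF and CENPE, differed by 0.23 (SE 0.16) and 0.11 (SE 0.17), with limma adjusted p of 0.432 and 0.741. Exons of FNTB, MIS12, CENPL, ZWILCH, CENPA, NDE1, NDEL1, FNTA and PAFAH1B1 overlap those of another gene, so their values are less certain, although the genes that overlap PAFAH1B1 were listed at 0.

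**Figure D3:**
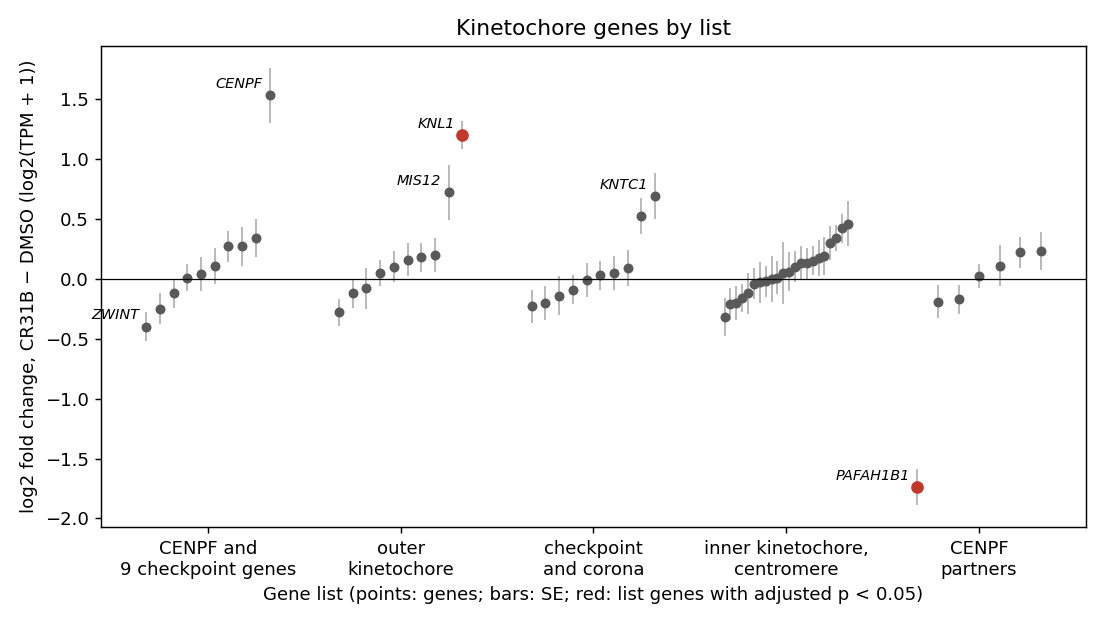
log2 fold change (CR31B minus DMSO, on log2(TPM + 1)) of each gene by list, with SE bars and, in the 4 lists besides the 10 chosen genes, red points for a limma adjusted p under 0.05. CENPF at 1.53 and KNL1 at 1.2 stand above their lists, and PAFAH1B1 at -1.74 stands below.

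Within the 10 genes the treatment difference followed coding length, a pattern seen only after the values were known. The coding sequences run from 615 nt in MAD2L1, 831 nt in ZWINT and 984 nt in BUB3, the 3 genes with values below 0, to 8103 nt in CENPE and 9342 nt in CENPF, the 2 genes with the highest values. Spearman's rho across the 10 genes was 0.95, and 0.93 across the 9 genes without CENPF. Leaving out each library in turn gave 0.92 to 0.98. With the length of the whole transcript rho was 0.53. The genes were chosen with these values known, share the same 8 libraries and are not independent replicates, so the coefficients only describe them.

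The same relation was weaker in larger sets. Spearman's correlation coefficient was 0.25 across 59 genes, the 10 and the 49 list genes together, and 0.09 across 10274 tested coding genes. The 4 kinetochore genes with at least 6000 coding nt, a bound set after the values were seen, were CENPF, CENPE, KNL1 and KNTC1, and all were higher under CR31B. Of all 258 tested coding genes of that length 178, or 69.0%, were above 0, with a median log2 difference of 0.127, and 6.98% were called higher. Among all tested genes 6374 of 11778 were above 0, and 3.45% were called higher. With all coding genes split by length into 10 bins, the median went from 0.001 in the shortest bin to 0.105 in the longest. CENPF and KNL1 lay far above that median: of the 258 genes 1, CENPF itself, reached the CENPF value, and 3 reached that of KNL1.

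**Figure D4:**
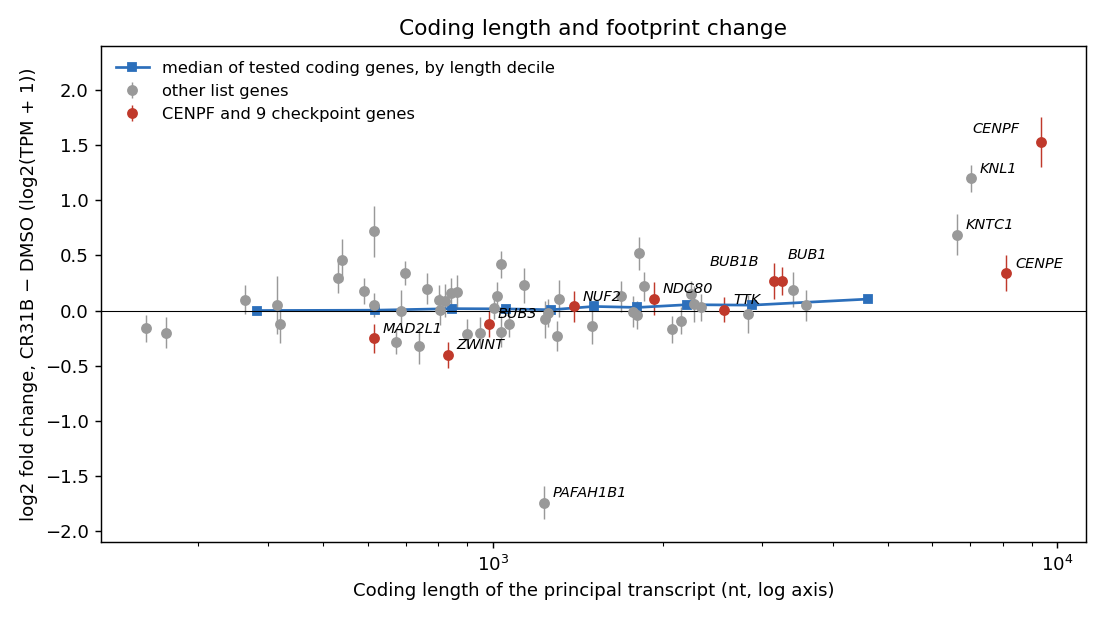
log2 fold change against coding length (nt, log axis) for the 10 genes (red, SE bars) and 49 list genes (grey, SE bars). Blue gives the median of all tested coding genes in each of 10 length bins. The red points climb from MAD2L1 and ZWINT, at -0.25 and -0.40, to CENPF at 1.53, while the blue line goes from 0.001 to 0.105.

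The genes most like CENPF over the 8 libraries, out of 5600 that had a symbol and averaged 10 TPM or more, were ZNF586, SNX7, ZNF17, MRPS16 and ZNF551, with Pearson's r of log2(TPM + 1) from 0.973 to 0.978. Their log2 differences were 0.88, 0.88, 0.97, 0.61 and 0.68. Since all libraries of both groups enter, r reflects the treatment difference as well as the spread within groups. Of the kinetochore genes outside the 10, KNL1 had the highest r (0.902), and of the 9 genes beside CENPF, BUB1B had the highest (0.737) and ZWINT the lowest (-0.985). A single one of the 5600 genes was lower than ZWINT.

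The promoters were read from a RefSeq table (GRCh38.p14), which had 1 entry for 7 of the 10 genes and gives 250 bases before and 50 after the start. The CHR element TTTGAA, through which many mitotic genes are repressed outside G2 and M phase, was searched on both strands. It occurred in 5 of the 7 promoters (CENPF, BUB1B, NDC80, NUF2 and MAD2L1) and in 15.2% of all 35116 promoters of the table. CCAAT boxes, bound by NF-Y, occurred in 3 of the 7 and in 34.6% of all. The 250 bases upstream of CENPF at chr1:214602945-214603194 (plus strand) are shown because this gene has the largest difference; capitals mark CCAAT boxes on either strand.
CENPF: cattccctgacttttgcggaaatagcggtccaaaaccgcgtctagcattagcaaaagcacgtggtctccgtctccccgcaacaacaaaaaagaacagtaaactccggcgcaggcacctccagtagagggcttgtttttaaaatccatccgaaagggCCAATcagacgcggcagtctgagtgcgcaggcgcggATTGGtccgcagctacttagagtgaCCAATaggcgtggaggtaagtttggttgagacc
A match describes the letters and not a bound site, and the CHR match of CENPF lies in the part after the start, which is not printed.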

How the data were processed

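Ribosome-protected fragments of 4 CR31B and 4 DMSO libraries were quantified by the authors. They deposited 1 table of TPM per gene, 1 column per library, each matched to its sample by the description in the labels, with 0 columns left over. The submitters' processing notes name cutadapt 3.2, Bowtie2 2.3.4.1, STAR 2.7.1a, RSEM 1.2.28, DESeq2 1.32.0 and the build GRCh38, without their roles. The annotation release is not given in the sources used here. RSEM shares reads between transcripts and similar genes by an estimate. Symbols were found for 60481 of 60651 identifiers, and GENCODE 29, joined without version suffix, gave transcripts and gene types for 58405.

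Genes averaging 1 TPM or more over the 8 libraries were tested (11778, all 10 members among them) on log2(TPM + 1) with limma 3.58.1 in R 4.3.3 (eBayes with trend, treatment as the only term, two-sided, Benjamini-Hochberg over all tested genes). The fit was tested on simulated data: of 200 changed among 11778 genes, 95.2% of those changed 4-fold and 77.6% of those changed 2-fold were recovered, and 3.56% of calls were false. Libraries with the same replicate number deviated together (correlations across genes of 0.333, 0.324, 0.301 and 0.105 for numbers 1 to 4, with -0.206 to 0.134 between libraries of different numbers, a range that holds the value of number 4), so the number served as a block in an alternative. The principal transcript was the APPRIS principal one, then that in CCDS, then the longest coding one. Genes and lists were chosen with earlier results of these data known. Named genes were the 10 members, list genes past the threshold, and the 5 genes most like CENPF; MIS12, SPC25, KNTC1, SPDL1, NDE1, NDEL1, FNTA, FNTB, CENPA and the other list genes given with values were added after their values were seen. Python 3.11.15 with NumPy 2.4.6, pandas 2.3.3, SciPy 1.17.1 and matplotlib 3.10.9 served for the rest.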

Additional observations from a re-analysis of the deposited data

Results flagged for a closer look

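For the 10 members and the 2 list genes called, each treatment group of 4 libraries was searched for a single library standing apart. Of these 24 groups 2 had one, and chance gives about 1.2. Both were BUB1B in replicate 3. Under CR31B it stood at 45.82 TPM while replicates 1, 2 and 4 had 33.56 to 35.42 TPM, and under DMSO at 41.39 TPM while they had 27.75 to 27.97 TPM. The ratio of CR31B to DMSO in BUB1B was 1.11 for replicate 3 and 1.21 to 1.27 for the other numbers. CENPF was also highest in replicate 3 of each group, whereas BUB1 was not.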

How the results depend on the processing

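The CENPF log2 fold change ran from 1.35 to 1.67 over 15 alternatives, and its distance to the mean of the other 9 members from 1.35 to 1.64 over the 14 that kept all 10. TTK changed sign in 5 alternatives and NUF2 in 1, from 0.01 and 0.04. Single libraries moved small differences of members: BUB1B, at 0.27, was 0.17 without CR31B replicate 3 and 0.41 without DMSO replicate 3, BUB3 ran from -0.18 to -0.04 and NDC80 from 0.03 to 0.2, NDC80 being lowest without DMSO replicate 3 and BUB3 nearest 0 without CR31B replicate 4. The members called were 1, against 879 of 11778 tested genes. They were 2 (CENPF and ZWINT) with the replicate block (1453 of 11778 genes called) and at a mean of at least 10 TPM (640 of 5613). The same 2 were called after quantile normalization (1174 of 11778) and after rescaling over protein-coding genes (1227 of 11136). KNL1 and PAFAH1B1 passed in all 15, with limma adjusted p of 0.000306 to 0.00548 and 4.08e-05 to 0.00428. Both came from lists chosen with earlier results of these data known. The number of genes called, 879, was 1453 with the replicate block and 442 with no filter on low values; leaving out 1 library gave 404 to 785. It fell most without DMSO replicate 4 (404), DMSO replicate 1 (502), DMSO replicate 2 (514) and CR31B replicate 4 (516). The count of list genes called, 2, was 4 with the replicate block, 4 at a mean of at least 10 TPM, 4 after quantile normalization and 5 after rescaling over protein-coding genes; leaving out 1 library gave 2 to 4, the 4 being without CR31B replicate 2 or CR31B replicate 4. At a mean of at least 10 TPM CENPE was not tested. The unknown depth limits what can be said of CENPE, the lowest member.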
